A study of Homo sapiens with 12 samples.

Results

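The lysyl oxidase family was described in HEK293, an embryonic kidney line of human origin, by taking every gene of the family in the deposited count table: *LOX*, *LOXL1*, *LOXL2*, *LOXL3* and *LOXL4*, 5 of 26485 genes. The family was chosen by measured values of this table, the counts of *LOXL4*, which was among the larger rises when the nucleocapsid of PEG10 was compared with control, so that comparison is given as a description with no test for all members, and so is *LOXL4* in each comparison of 1 construct with another that holds NC or control. PEG10 is a human protein domesticated from a retrotransposon, read as gag or, after a ribosomal frameshift, as gag-pol. Cells of WT genotype were transiently transfected and harvested 48 hr later, and their polyadenylated RNA was sequenced in 12 libraries, 3 per group. The groups were LifeAct-Dendra2 (control, an actin-binding peptide fused to a fluorescent protein), PEG10 gag-pol, PEG10 gag, and PEG10 NC, the nucleocapsid fragment of gag that carries its zinc finger. Every group therefore carried a plasmid, the PEG10 proteins were made from plasmids on top of the cells' own *PEG10*, and the share of cells that took up a plasmid was not measured in these files. In bulk RNA, fewer cells with a transcript and less of it per cell cannot be told apart.

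Lysyl oxidases are secreted, copper-dependent amine oxidases. They convert lysine residues of collagen and elastin into aldehydes, which then react with neighboring chains to form the crosslinks that give extracellular matrix its strength. All members share a C-terminal catalytic domain with a lysine-derived quinone cofactor. LOX and LOXL1 are made as proenzymes with a propeptide that the protease BMP1 and its relatives remove, whereas LOXL2, LOXL3 and LOXL4 carry scavenger receptor cysteine-rich domains instead. The gene models of GENCODE release 44 show the same division: *LOX* and *LOXL1* have 7 exons each in the representative transcript, *LOXL2* and *LOXL3* have 14 and *LOXL4* has 15.

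On GRCh38, *LOX* (ENSG00000113083.15) lies on the reverse strand of chromosome 5 from 122063195 to 122078413, *LOXL1* (ENSG00000129038.16) on the forward strand of chromosome 15 from 73925989 to 73952137, *LOXL3* (ENSG00000115318.12) on the reverse strand of chromosome 2 from 74532258 to 74555690, and *LOXL4* (ENSG00000138131.4) on the reverse strand of chromosome 10 from 98247690 to 98268194. The chromosome of *LOXL2* is given with its values, and no 2 members share a chromosome.

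The 250 bases before the transcription start of 4 members are shown, with *LOXL2* left out. They are written 5′ to 3′ on the strand of the gene, from RefSeq on GRCh38.p14, at chr5:122078260-122078509 (reverse strand) for *LOX*, chr15:73926212-73926461 (forward strand) for *LOXL1*, chr2:74553943-74554192 (reverse strand) for *LOXL3* and chr10:98268195-98268444 (reverse strand) for *LOXL4*. Capitals mark every match, on either strand, to 1 of the 7 motifs searched.
LOX: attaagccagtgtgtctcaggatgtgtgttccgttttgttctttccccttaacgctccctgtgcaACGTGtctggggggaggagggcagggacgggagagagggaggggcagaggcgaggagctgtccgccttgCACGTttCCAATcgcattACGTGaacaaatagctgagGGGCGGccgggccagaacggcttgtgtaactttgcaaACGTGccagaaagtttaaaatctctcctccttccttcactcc
LOXL1: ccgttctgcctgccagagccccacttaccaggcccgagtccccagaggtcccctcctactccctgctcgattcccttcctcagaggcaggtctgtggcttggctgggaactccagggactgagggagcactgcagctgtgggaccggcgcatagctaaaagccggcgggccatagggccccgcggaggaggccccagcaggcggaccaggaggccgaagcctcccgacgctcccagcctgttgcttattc
LOXL3: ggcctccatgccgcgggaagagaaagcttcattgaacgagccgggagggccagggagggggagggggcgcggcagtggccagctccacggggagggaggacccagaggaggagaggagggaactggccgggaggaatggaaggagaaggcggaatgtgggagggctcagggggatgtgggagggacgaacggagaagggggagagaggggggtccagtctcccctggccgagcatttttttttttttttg
LOXL4: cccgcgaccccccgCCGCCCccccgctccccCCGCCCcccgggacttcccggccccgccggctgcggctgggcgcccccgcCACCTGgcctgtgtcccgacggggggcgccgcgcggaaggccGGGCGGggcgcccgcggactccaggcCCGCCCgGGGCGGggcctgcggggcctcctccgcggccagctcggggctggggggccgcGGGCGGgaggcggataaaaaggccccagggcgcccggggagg
The motifs were the hypoxia-inducible factor core ACGTG, the GC box GGGCGG, the TATA box TATAAA, the SMAD box GTCTAGAC, the SNAI E-box CACCTG, the CCAAT box CCAAT and the AP-1 site TGANTCA, and no 2 of the matches overlapped. The *LOX* promoter held ACGTG 4 times, at -185, -116, -98 and -42 counted from the transcription start, together with 1 GC box and 1 CCAAT box. Of 35116 RefSeq promoters cut to the same length, 18.5% held ACGTG at least once and 0.669% held it 4 times or more. The *LOXL4* promoter held 6 GC boxes and 1 SNAI E-box. A GC box was present in 42.6% of all promoters, 6 or more of them in 2.22%, and the E-box in 17.5%. The *LOXL4* window was 86.4% G and C, higher than 99.8% of promoters, beside 55.2% for *LOX*, 66.8% for *LOXL1* and 64.4% for *LOXL3* and a median of 58% over all. The *LOXL1* and *LOXL3* windows held none of the 7 motifs. Shares over all promoters were 32% for CCAAT, 10.7% for TATAAA, 6.57% for TGANTCA and 0.182% for GTCTAGAC. These matches describe letters only, and binding was not measured.

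In CPM (counts scaled by library size to a fixed total) per kilobase of exon, the members differed in level in control cells. *LOX* and *LOXL1* stood highest, at 6.07 ± 1.56 and 6.03 ± 2.65 CPM per kilobase (SD, n = 3), *LOXL2* followed at 2.94 ± 0.873 and *LOXL3* at 1.55 ± 0.242, and *LOXL4* stood lowest at 0.533 ± 0.0903. On this scale 58.8% and 58.6% of the expressed genes with a known exon length lay below *LOX* and *LOXL1*, and 18.3% lay below *LOXL4*. *LOX* and *LOXL1* did not differ beyond their spread in control cells, whereas each later step in the order was larger than the SD on either side of it. Of all counts of the family, *LOX* took 31.3% to 45.2% and *LOXL4* 2.18% to 4.41% in single libraries, with no correction for length. With NC the levels per kilobase were 7.79 for *LOX*, 8.83 for *LOXL1*, 4.15 for *LOXL2*, 1.59 for *LOXL3* and 1.19 for *LOXL4*.

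**Figure D1:**
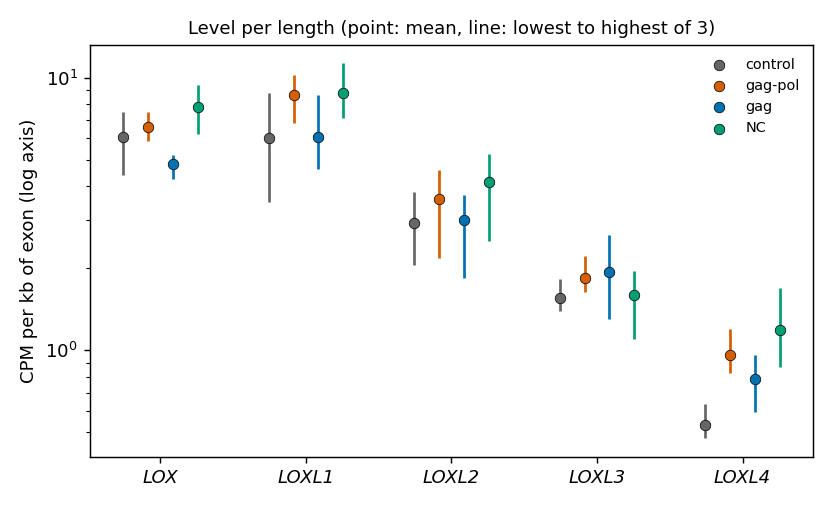
Level of each lysyl oxidase gene in CPM per kilobase of exon (vertical axis, logarithmic), by construct. Each point is the mean of 3 libraries and each line runs from the lowest to the highest of them. In control, *LOX* (6.07) and *LOXL1* (6.03) stand highest and *LOXL4* (0.533) lowest.

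All following levels are normalized counts, the read counts scaled to a common library size of 37579187, which compare 1 gene between libraries but not 1 gene with another. Libraries held 30625725 to 45316749 counts, and all 5 members were among the 17176 genes that passed the filter on low counts. The lowest raw count of a member was 60, for *LOXL4* in control replicate 3, with an exact Poisson interval of 45.8 to 77.2 (95%, counting error only). The transfected gene was at 11104 ± 2345 in control, 1752325 ± 946257 in gag-pol, 2014205 ± 538022 in gag and 115896 ± 27759.5 in NC libraries (SD, n = 3 each), higher with every PEG10 plasmid as labelled. All 8 HEK293 markers looked for (VIM, KRT8, KRT18, NEFL, NEFM, INA, PAX2 and LHX1) were detected in every library. Their summed level was 906 to 1120 CPM in control, 1030 to 1050 with gag, 1180 to 1240 with gag-pol and 1150 to 1460 with NC, higher in the groups in which *LOX* and *LOXL1* were higher, and its part in the results was not tested. Fibroblast markers, with DCN and LUM at or near 0, summed to 19.6 to 54.4 CPM over the libraries, and the lowest sum was with NC. The smooth muscle, endothelial and blood markers summed to 22.2 to 29.5, 0.331 to 1.67 and 0 to 0.704 CPM.

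*LOX*, which crosslinks fibrillar collagen and elastin, was lowest with gag and highest with NC. It was at 1334, 1572 and 922 in control replicates 1, 2 and 3, and at 1041, 1098 and 896 with gag. It was at 1356, 1572 and 1230.3 with gag-pol, and at 1637, 1975 and 1304 with NC. The gag libraries lay below all 3 gag-pol and all 3 NC libraries, while control replicate 3 lay among the gag libraries and the other controls among those of gag-pol.

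*LOXL1*, which acts in the upkeep of elastic fibers, was at 797, 1199.7 and 477 in control and at 672, 1179 and 633 with gag. With gag-pol it was at 931, 1388 and 1229, and with NC at 974, 1540.3 and 1106. Control and gag were close to each other, gag-pol and NC were close to each other and higher in each replicate, and the groups overlapped. Control replicate 3, at 477, was the lowest library.

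*LOXL2* (ENSG00000134013.16, on the reverse strand of chromosome 8), which oxidizes the type IV collagen of basement membranes among other substrates, was at 462, 854 and 667 in control and at 413, 784 and 836 with gag. It was at 491, 1032 and 896 with gag-pol and at 564, 1178 and 1056 with NC. All groups overlapped and replicate 1 was the lowest in each, yet within each replicate number NC was the highest of the 4 constructs.

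*LOXL3*, a member needed in development of the palate and the spine, was at 311, 243 and 238 in control and at 449.7, 317 and 221 with gag. It was at 378, 279 and 286 with gag-pol and at 331, 290.2 and 186 with NC. No construct stood apart from the others.

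*LOXL4*, the least abundant member, was at 65.4, 86.1 and 64.5 in control and at 109, 130.3 and 80.3 with gag. It was at 115, 162 and 112 with gag-pol and at 117, 229.7 and 134 with NC. The gag-pol and NC libraries all lay above the 3 controls, gag replicate 3 fell among the controls, and NC replicate 2 was the highest of the 12 libraries.

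**Figure D2:**
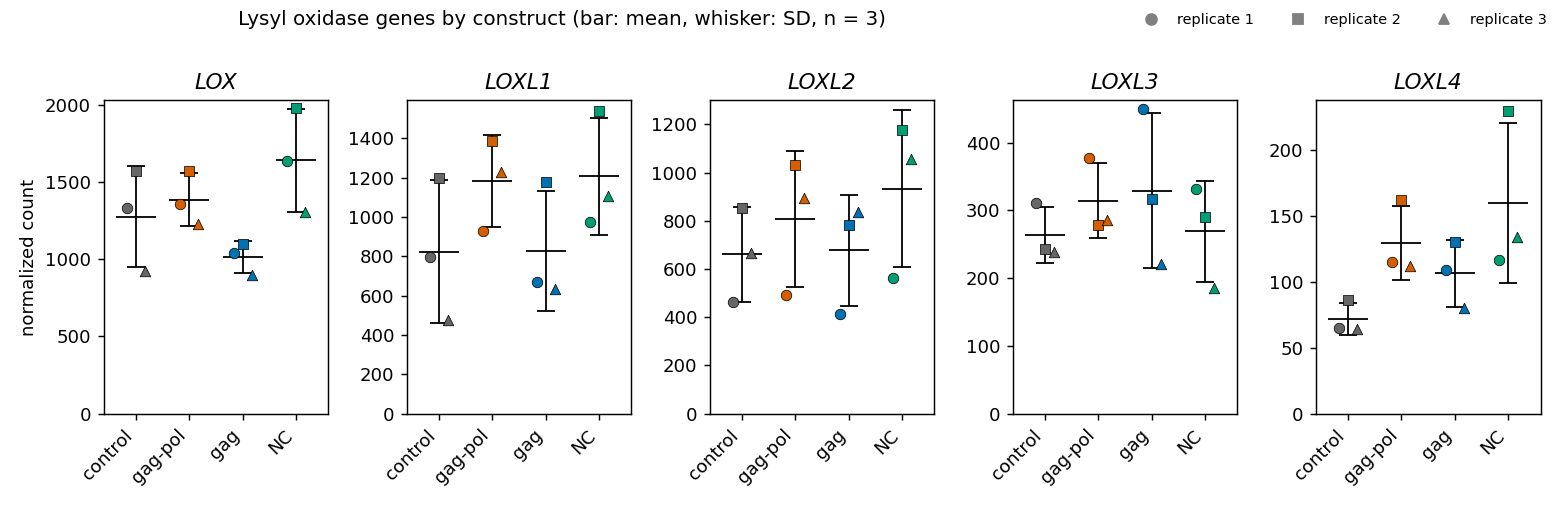
Normalized count (vertical axis, linear from 0) of each lysyl oxidase gene in the 12 libraries by construct, 1 panel per gene. Points are libraries, with 1 shape per replicate number, horizontal bars are means and whiskers are the SD of 3. The 3 gag libraries of *LOX* (896 to 1098) lie below those of gag-pol (1230.3 to 1572) and NC (1304 to 1975), and the controls of *LOXL4* (64.5 to 86.1) lie below those of gag-pol (112 to 162) and NC (117 to 229.7).

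Gag-pol was compared with gag to ask what the pol region adds, and these libraries had no part in choosing the family, so all 5 members were tested. *LOX* was higher with gag-pol by 0.45 on the log2 scale (SE 0.10, 1.37-fold, 95% interval 0.25 to 0.65), with an adjusted p of 0.009 in the quasi-likelihood test of edgeR, Benjamini-Hochberg adjusted over all genes tested. The 3 replicate differences were 0.38, 0.52 and 0.46, all above 0 as for 24.8% of all genes tested, and the groups did not overlap, as for 6.64% of them in this direction. *LOXL1* was higher by 0.57 (SE 0.18, 0.17 to 0.96, adjusted p = 0.083), *LOXL2* by 0.25 (SE 0.11, 0.01 to 0.48, adjusted p = 0.18) and *LOXL4* by 0.28 (SE 0.22, -0.17 to 0.74, adjusted p = 0.46), and none of them passed the threshold of 0.05 in the same test. *LOXL3* differed by -0.03 (SE 0.16, -0.37 to 0.31, adjusted p = 0.94). The count of 1 member called of 5 stands beside 6.46% of all genes tested. The *LOX* call was lost without gag-pol replicate 3 (adjusted p = 0.087), gag replicate 1 (0.062) or gag replicate 2 (0.068), and without the replicate number in the model (0.81), and *LOXL1* was called by DESeq2 (0.011) and when control replicate 3 (0.0025) or gag-pol replicate 2 (0.044) was left out.

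NC was compared with gag to ask how the free nucleocapsid differs from the whole of gag. The *PEG10* count was also 17.1-fold lower with NC than with gag, and the part of this difference was not tested. NC is a fragment of gag with a shorter coding sequence, and the counts were not corrected for it. The fold therefore compares reads, not transcripts or protein. The members tested were *LOX*, *LOXL1*, *LOXL2* and *LOXL3*. Of these 4 members, 3 rose, beside 16.9% of all genes called and 8.76% called higher. *LOX* rose by 0.68 (SE 0.10, 1.6-fold, 95% interval 0.48 to 0.88), *LOXL1* by 0.57 (SE 0.18, 0.18 to 0.96) and *LOXL2* by 0.45 (SE 0.11, 0.22 to 0.68). Their adjusted p-values in the Benjamini-Hochberg adjusted quasi-likelihood test of edgeR were 0.00026, 0.047 and 0.0082. *LOX* was higher in each replicate, by 0.65, 0.85 and 0.54, as for 23.3% of all genes, and its groups did not overlap, as for 7.09% in this direction. *LOXL3* was lower by 0.27 (log2 -0.27, SE 0.17, -0.61 to 0.07, adjusted p = 0.28). *LOXL4*, with no test, was higher by 0.57 (SE 0.22), with replicate differences of 0.10, 0.82 and 0.74. The *LOX* call held when each of the 12 libraries was left out, with adjusted p-values from 2.2e-05 to 0.0055, that of *LOXL2* was lost without gag replicate 1 (0.056) or gag replicate 2 (0.07), and that of *LOXL1* was lost without any of 7 libraries (gag-pol replicate 1 and every gag and NC library, up to 0.17). With no replicate number in the model none of the 3 was called, and *LOX* then had an adjusted p of 0.40.

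NC did not differ detectably from gag-pol in any of the 4 members tested. The differences were 0.23 for *LOX* (SE 0.10, 95% interval 0.03 to 0.43), 0.01 for *LOXL1* (SE 0.18, -0.38 to 0.39), 0.21 for *LOXL2* (SE 0.11, -0.02 to 0.44) and -0.24 for *LOXL3* (SE 0.16, -0.59 to 0.10). Adjusted p-values ran from 0.42 to 1 in the Benjamini-Hochberg adjusted quasi-likelihood test of edgeR, 1 of the 4 had an unadjusted p under 0.05, beside 9.92% of all genes, and DESeq2 also called none. In all, edgeR called 0.0873% of genes in this comparison. *LOXL4*, with no test, was higher with NC by 0.28 (SE 0.22).

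Against control, no tested member passed the threshold with gag-pol or with gag, comparisons that use the same 3 control libraries. With gag-pol, *LOX* differed by 0.14 (SE 0.10, adjusted p = 0.37), *LOXL1* by 0.58 (SE 0.18, 95% interval 0.18 to 0.97, adjusted p = 0.059), *LOXL2* by 0.26 (SE 0.11, adjusted p = 0.13) and *LOXL3* by 0.25 (SE 0.16, adjusted p = 0.34). Of these, 2 had an unadjusted p under 0.05, beside 27.3% of all genes. DESeq2 called 1 of them. The share of all genes called, by edgeR, was 11.3%. For *LOXL1* the 3 replicate differences were 0.22, 0.21 and 1.36, the last against control replicate 3, without which the difference was 0.32, and it was called without control replicate 1 (adjusted p = 0.034) or gag-pol replicate 2 (0.031). With gag, *LOX* differed by -0.31 (SE 0.10, 95% interval -0.51 to -0.11, adjusted p = 0.13), *LOXL1* by 0.01 (SE 0.18, adjusted p = 0.99), *LOXL2* by 0.02 (SE 0.11, adjusted p = 0.97) and *LOXL3* by 0.28 (SE 0.17, adjusted p = 0.49). Here 1 of the 4 had an unadjusted p under 0.05, beside 13.7% of all genes. DESeq2 called 0 of them. The share of all genes called, by edgeR, was 1.08%. *LOX* was called without control replicate 3 (adjusted p = 0.027). All these p-values are from the Benjamini-Hochberg adjusted quasi-likelihood test of edgeR.

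The values against control that the choice of the family used are given as a description. With NC, the log2 differences were 0.37 for *LOX* (SE 0.10), 0.58 for *LOXL1* (SE 0.18), 0.47 for *LOXL2* (SE 0.11), 0.01 for *LOXL3* (SE 0.17) and 1.12 for *LOXL4* (SE 0.22, 2.18-fold), the last the 106th largest rise among all genes tested. For *LOXL1* the replicate differences were 0.29, 0.36 and 1.21, and the value was 0.33 without control replicate 3. *LOXL4* differed by 0.84 with gag-pol (SE 0.22, 1.79-fold) and by 0.56 with gag (SE 0.23, 1.47-fold). Its replicate differences from control were 0.81, 0.91 and 0.79 for gag-pol, 0.73, 0.60 and 0.32 for gag, and 0.84, 1.42 and 1.06 for NC. These differences share the same control libraries, and those of NC belong to the comparison that chose *LOXL4*, so their common sign is no separate evidence. The order of the group means was control, gag, gag-pol and NC for *LOXL1*, *LOXL2* and *LOXL4*. In *LOX* gag stood below control, and in *LOXL3* the order was control, NC, gag-pol and gag. In this comparison 11.2% of all genes were called, and 4.56% had NC libraries that all lay above the controls, beside 6.74% for gag-pol libraries above the controls.

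**Figure D3:**
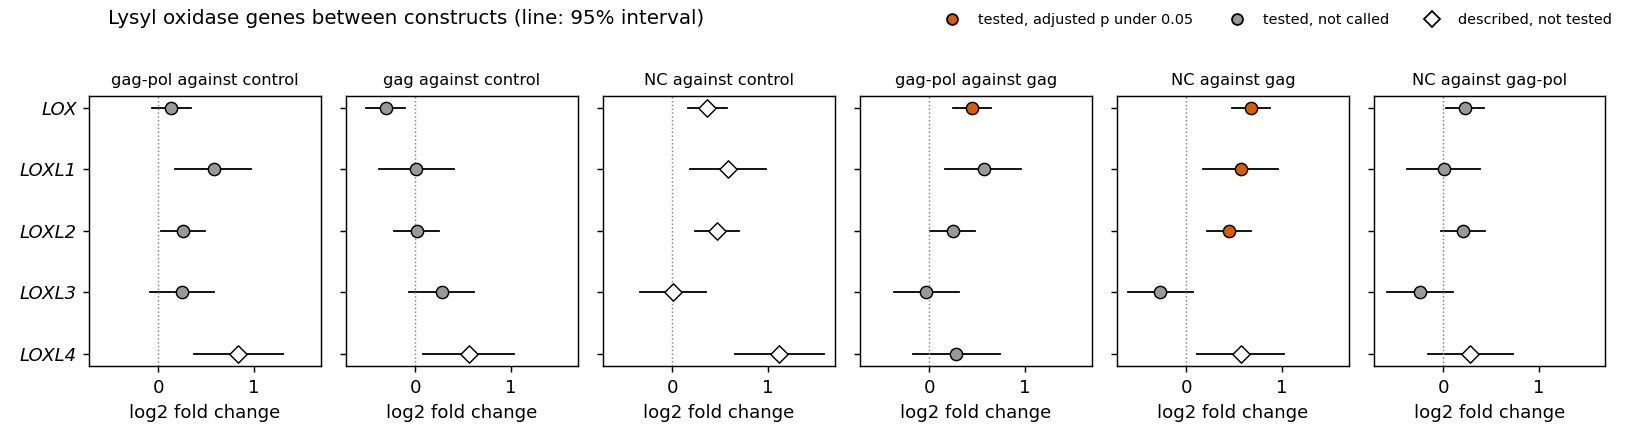
Log2 fold change of each lysyl oxidase gene in each comparison of constructs, with its 95% interval from the fit to all 12 libraries. Orange points passed the threshold, gray points did not, open diamonds were not tested, and the dotted line marks no difference. *LOX* lies above 0 in gag-pol against gag (0.45) and in NC against gag (0.68), and *LOXL4* lies farthest to the right in NC against control (1.12), a comparison shown with no test.

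Both constructs that hold the capsid region, gag-pol and gag, were also set against both groups that lack it, NC and control. This contrast is independent of the one that chose the family, so all 5 members were tested. Averaged over gag-pol and gag, *LOX* was lower than the average of NC and control by 0.27 (log2 -0.27, SE 0.07, 95% interval -0.41 to -0.13). Its adjusted p was 0.032 in the Benjamini-Hochberg adjusted quasi-likelihood test of edgeR, beside 0.996% of all genes called lower and 3.25% called in either direction. The other members differed by 0 (*LOXL1*, SE 0.13), -0.10 (*LOXL2*, SE 0.08), 0.26 (*LOXL3*, SE 0.12) and 0.14 (*LOXL4*, SE 0.16), with adjusted p-values of 1, 0.58, 0.24 and 0.71 in the same test. The *LOX* call was lost when any of 8 of the 12 libraries was left out (every one but control replicate 3, gag-pol replicate 3, gag replicate 3 and NC replicate 3), with adjusted p-values from 0.054 to 0.14, and without the replicate number in the model.

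Every member differed between the replicate numbers. The labels give these numbers alone, with no harvest date or passage for single libraries. The 5 members called stand beside 52.8% of all genes. Adjusted p-values in the Benjamini-Hochberg adjusted quasi-likelihood test of edgeR were 0.00016 for *LOX*, 0.003 for *LOXL1*, 1.7e-07 for *LOXL2*, 0.0022 for *LOXL3* and 0.015 for *LOXL4*. *LOXL2* was lowest in replicate 1 in 4 of 4 constructs, and was higher by 0.99 (SE 0.10) in replicate 2 and by 0.83 (SE 0.10) in replicate 3. *LOXL3* ran the other way, highest in replicate 1 in 4 of 4 constructs, and was lower in replicate 3 by 0.65 (log2 -0.65, SE 0.14). *LOX*, *LOXL1* and *LOXL4* were each highest in replicate 2 in 4 of 4 constructs, with log2 differences of replicate 3 from replicate 2 of -0.50, -0.69 and -0.61. For *LOXL2* the difference between replicates 2 and 1, 1.98-fold, was larger than any difference between constructs, whereas for *LOX* the largest replicate difference, -0.50, was smaller in size than that of NC from gag. *LOXL4* lost its call without NC replicate 2 (adjusted p = 0.099).

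**Figure D4:**
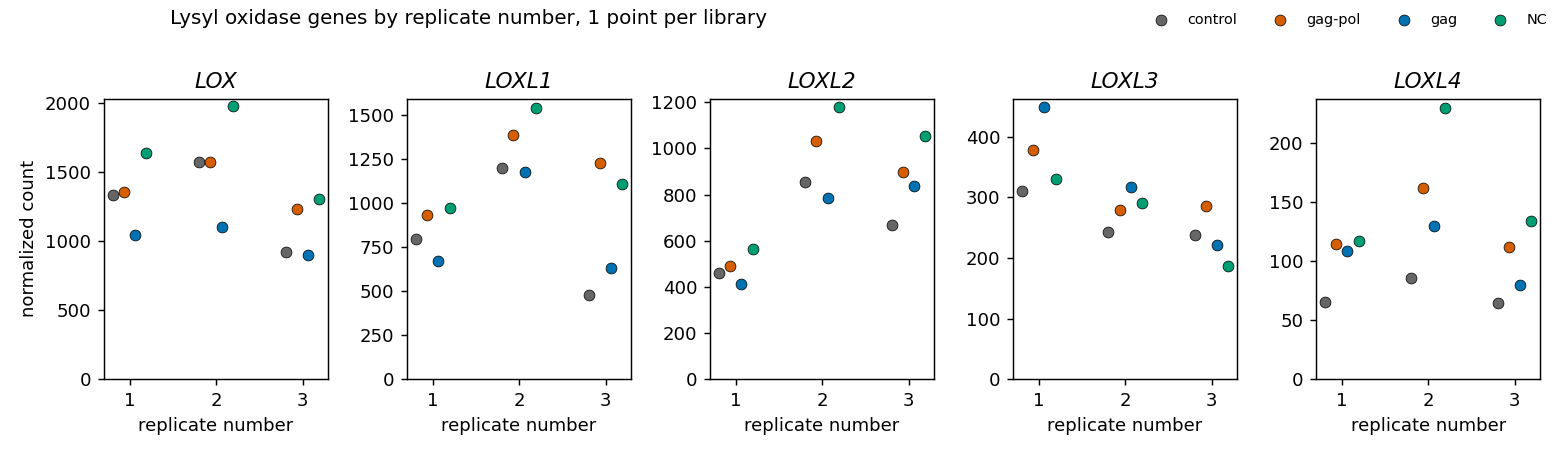
Normalized count (vertical axis, linear from 0) of each lysyl oxidase gene by replicate number (horizontal axis), colored by construct, with 1 point per library. *LOXL2* is lowest in replicate 1 (413 to 564) and *LOXL3* highest there (311 to 449.7), while *LOX*, *LOXL1* and *LOXL4* are highest in replicate 2 within each construct.

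After the mean of each replicate number was removed, *LOX* and *LOXL2* varied together over the 12 libraries (Pearson's r = 0.87), as did *LOXL1* and *LOXL2* (0.80) and *LOXL2* and *LOXL4* (0.76). The remaining pairs without *LOXL3* were weaker, at 0.75 for *LOX* and *LOXL1*, 0.68 for *LOXL1* and *LOXL4* and 0.52 for *LOX* and *LOXL4*. *LOXL3* was the exception, with r of -0.40 to *LOX*, -0.35 to *LOXL2*, -0.07 to *LOXL1* and 0.23 to *LOXL4*. These are descriptions over libraries that share constructs and replicate numbers. Before the replicate means were removed, *LOX* and *LOXL2* had an r of 0.32 and *LOXL2* and *LOXL3* of -0.70. On the same centered scale, the genes most like each member among 13510 genes were *C12orf75* (0.984), *LMAN1* (0.978) and *CDH2* (0.977) for *LOX*, and *ADAMTS9* (0.992), *TMEM164* (0.988) and *CAMKK2* (0.986) for *LOXL1*. For *LOXL2* they were *RND2* (0.976), *NFE2L3* (0.97) and *SLC31A1* (0.968), for *LOXL3* *PSME3* (0.945), *HUS1* (0.913) and *ZNF18* (0.907), and for *LOXL4* *NUDT1* (0.954), *UFL1* (0.949) and *ZDHHC4* (0.944). *SLC31A1* encodes the copper importer of the plasma membrane, and *CDH2* encodes N-cadherin.

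Of the 5 members, 4 overlap another annotated gene, and because the strand setting of the counting was not stated, reads in shared exons may have been assigned to either or to none. *LOXL3* shares 936 exon bases with *HTRA2* and 216 with *DOK1*, both on the opposite strand, of its 4519 exon bases. *LOXL1* shares 335 with its antisense transcript *LOXL1-AS1*, *LOX* 138 with *SRFBP1* on the opposite strand and *LOXL2* 120 with *ENTPD4* on the same strand. *LOXL4* overlapped none. In gag-pol against gag and in NC against gag, where *LOX*, *LOXL1* or *LOXL2* was called, none of the 5 overlapping genes was: *SRFBP1* differed by -0.02 and -0.23, *LOXL1-AS1* by 0.17 and 0.21, and *ENTPD4* by 0.05 and 0.01. *HTRA2* was lower with gag-pol than in control by 0.35 (log2 -0.35, SE 0.11, adjusted p = 0.039 in the Benjamini-Hochberg adjusted quasi-likelihood test of edgeR).

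The genes around lysyl oxidase in the cell were followed in 10 lists of 109 genes, of which 103 were tested: the proteins that mature and secrete the enzymes, copper supply, the collagen and elastic fiber substrates, collagen hydroxylation, the other copper amine oxidases, and regulators, targets and markers of mesenchymal transition, TGF-beta and hypoxia. The other 6 genes were too low to test: *ELN*, which encodes elastin itself, *TLL1*, *POSTN*, *COL11A1*, *MFAP5* and *AOC1*. In NC against gag 27 of the 103 rose and 8 fell, which is 34% beside 16.9% of all genes. In gag-pol against gag 8 rose and 3 fell (10.7% beside 6.46%), and in gag-pol against control 4 rose and 8 fell (11.7% beside 11.3%). In gag against control 2 rose and 2 fell (3.88% beside 1.08%), in NC against gag-pol 1 fell (0.971% beside 0.0873%), and with the capsid region 2 rose and 6 fell (7.77% beside 3.25%). Those called in gag against control were *COL1A2* (3.71), *ADM* (0.70), *COL2A1* (-0.35) and *PLOD2* (-0.38). With NC against control, with no test, *ADM* differed by -0.31, *COL2A1* by 0.16 and *PLOD2* by -0.07. A rise or fall in NC against gag therefore does not say which of them moved from control. The median log2 difference of the 103 genes in NC against gag was 0.12, beside -0.01 over all genes. The lists were chosen with earlier results of these data known, so these shares and medians are descriptions.

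Among the substrates, type IV collagens rose most often with NC against gag, in 4 of 6 genes, beside 8.76% of all genes called higher. These were *COL4A6* by 0.54 (SE 0.10), *COL4A4* by 0.50 (SE 0.11), *COL4A2* by 0.45 (SE 0.07) and *COL4A1* by 0.31 (SE 0.07). Their adjusted p-values in the Benjamini-Hochberg adjusted quasi-likelihood test of edgeR ran from 0.00056 to 0.007. Fibrillar collagens were mixed in the same comparison: of 10 tested, *COL2A1* (0.51, SE 0.07) and *COL5A1* (0.49, SE 0.11) rose and *COL1A2* fell (-3.63, SE 0.47). *COL1A2* is a neighbor of *PEG10* on its chromosome and was at 8.87 to 9.68 normalized counts in control, 4.65 to 19.8 in NC, 61 to 178 in gag-pol and 78.4 to 158 in gag libraries. Against control it rose by 3.70 (SE 0.48) with gag-pol and by 3.71 (SE 0.47) with gag on the log2 scale. *COL1A1*, its partner chain in type I collagen, differed by -0.28 with NC against gag (SE 0.15, adjusted p = 0.21). Set against control, the other fibrillar genes leaned lower. In gag-pol cells *COL3A1* (-1.63, SE 0.41), *COL24A1* (-0.78, SE 0.23) and *COL11A2* (-0.68, SE 0.13) fell. Their normalized counts ran from 29.3 to 57.6, 54.6 to 144 and 437 to 688 with gag-pol. In control they spread widely, from 56.1 to 376, 110 to 239.8 and 614 to 1251, so the groups overlapped for each gene. With *COL1A2* included, 40% of the 10 genes were called in gag-pol against control, beside 11.3% of all genes. The median of the 10 genes was then -0.31, and 2 lay above 0. For gag the median was -0.24. For NC, described with no test, it was -0.29, and 3 of 10 lay above 0. Of the 13 elastic fiber genes tested 4 rose with NC against gag, among them *FBLN1* (0.56), *LTBP4* (0.39) and *FBN2* (0.37), and *EMILIN2* fell (-0.36).

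Collagen hydroxylation and folding genes rose in 6 of 16 with NC against gag, beside 8.76% of all genes, and fell in none. They were *CRTAP* (0.63, SE 0.09), a partner of prolyl 3-hydroxylase, *P4HA1* (0.50, SE 0.11), a prolyl 4-hydroxylase subunit, *SERPINH1* (0.36, SE 0.08), the collagen chaperone, and the lysyl hydroxylases *PLOD2* (0.31) and *PLOD1* (0.22) with *FKBP10* (0.27). *CRTAP* (0.49) and *SERPINH1* (0.37) also rose with gag-pol against gag. In the maturation list 3 of 9 were called with NC against gag, beside 16.9% of all genes. *FN1*, the fibronectin scaffold on which proteolytic activation takes place, rose by 0.54 (SE 0.08), *FBLN5*, an elastic fiber tether of LOXL1, rose by 0.61 (SE 0.13), and *THBS1* fell (-0.61, SE 0.21). *BMP1*, which cleaves the LOX propeptide, differed by -0.04 (SE 0.09, adjusted p = 0.79). In copper supply, *ATOX1*, the chaperone, rose by 0.36 and *ATP7B* by 0.25, while *ATP7A*, the pump that loads secreted copper enzymes, differed by 0.06 (SE 0.12, adjusted p = 0.81). Of the other copper amine oxidases, *AOC2* fell with NC (-0.44, SE 0.11) and with gag-pol (-0.43, SE 0.11), each against gag.

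Genes of the mesenchymal transition, TGF-beta and hypoxia lists did not move one way. Of 12 mesenchymal transition genes, *CDH1* (0.71, SE 0.16), *CDH2* (0.40, SE 0.08), *VIM* (0.38, SE 0.09) and *EPCAM* (0.27) rose with NC against gag and *ZEB2* fell (-0.41, SE 0.10), so markers of both the epithelial and the mesenchymal state rose. *SNAI1*, the repressor of *CDH1*, differed by -1.08 (SE 0.35, adjusted p = 0.073). Of 14 TGF-beta response genes none rose, and *SKIL*, a feedback repressor of the pathway, was among those that fell (-0.34, SE 0.10). Of 14 hypoxia genes, *LDHA* (0.56, SE 0.13), *PDK1* (0.39, SE 0.11) and *BNIP3* (0.32) rose with NC against gag and *ADM* fell (-1.01, SE 0.15). Against control, *ADM* rose by 0.70 with gag (SE 0.15) and differed by -0.31 with NC (SE 0.15, no test). All calls are from the quasi-likelihood test of edgeR, Benjamini-Hochberg adjusted over all genes tested, with no test of a list as a whole.

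**Figure D5:**
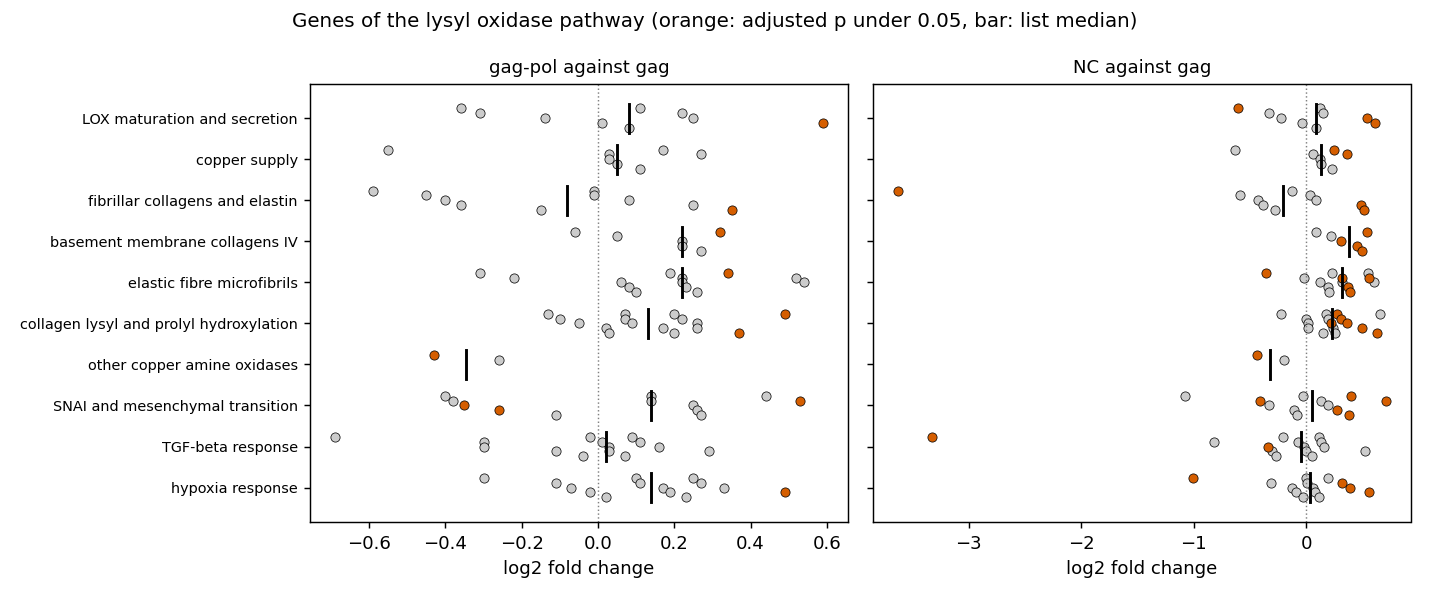
Log2 fold change of each gene of the 10 lists in gag-pol against gag and in NC against gag, 1 line per list, on a horizontal scale of its own in each panel. Each point is 1 gene, orange where it passed the threshold of 0.05, and the short bar is the median of the list. In NC against gag 4 of 6 type IV collagen genes and 6 of 16 hydroxylation genes are called and lie to the right of 0, beside 8.76% of all genes.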

How the data were processed

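RNA-seq libraries of polyadenylated RNA from transfected HEK293 cells were analyzed from the read counts per gene that the authors deposited. Per the labels' processing notes and the study's methods, the authors mapped reads to GRCh38.p13 with STAR 2.7.3, used SAMtools 1.8 and counted with featureCounts. The annotation release and strand setting are not given in the sources used here. The control is named LifeAct-Dendra2 after the labels.

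Counts were fitted once over all 12 libraries with edgeR 4.0.16 in R 4.3.3, using its quasi-likelihood test with robust estimation, TMM normalization, construct and replicate number as terms, and the filter on low counts by construct (minimum count 10, minimum total 15). The genes tested held 99.97% of all counts. The biological coefficient of variation was 10.7% and 6 residual degrees of freedom remained. P-values were adjusted by the Benjamini-Hochberg method for the 17176 genes tested, and genes were called under 0.05. Replicate numbers paired the libraries: after removal of construct means, 18 pairs with the same number correlated at 0.14 to 0.54 and 36 with different numbers at -0.50 to 0.07. The study's methods name harvest date as a variable, which the replicate number was taken to stand for, although the labels date no library. With this term, p-values measure the spread left after the means of the replicate numbers are removed, which may be technical. No libraries agreed within sampling noise. CPM is the usual library-scaled count, with TMM-scaled library sizes, and normalized counts are scaled to the mean library total. Levels per kilobase used union exon lengths of GENCODE release 44, known for 90.4% of genes tested, and promoters came from RefSeq on GRCh38.p14. The fit was checked on simulated data.

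Members and lists were chosen with earlier results of these data known. Genes named are the members, PEG10, overlapping genes, the 3 genes most correlated with each member (mean of at least 1 log2 CPM), in each list the 3 called genes with the largest change per tested comparison, and BMP1, ATP7A, ELN, FN1, COL1A1 and SNAI1. Other members of short lists of called genes were named after their values were seen. Alternatives were DESeq2 1.42.0, RLE and upper-quartile factors, no filter, a floor of 10 counts in each library, PEG10 left out, no robust estimation, no replicate number, and each library left out in turn. Figures were drawn with matplotlib.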

Additional observations from a re-analysis of the deposited data

Results flagged for a closer look

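The effects of gag and of the other constructs, each taken against the shared control libraries, differed in 4 cases by the test of the difference itself, the quasi-likelihood test of edgeR, Benjamini-Hochberg adjusted over all genes tested. For *LOX* the difference was 0.45 on the log2 scale between gag-pol and gag (adjusted p = 0.009) and 0.68 between NC and gag (adjusted p = 0.00026). *LOX* was higher than with gag in 3 of 3 replicates in both, as were 24.8% and 23.3% of all genes tested. For *LOXL1* the difference was 0.57 between NC and gag (adjusted p = 0.047), and for *LOXL2* it was 0.45 between NC and gag (adjusted p = 0.0082). Both were again higher in 3 of 3 replicates, as were 23.3% of all genes. With each of the 12 libraries left out in turn, the calls between NC and gag held in 12 fits for *LOX*, 5 for *LOXL1* and 10 for *LOXL2*. That of *LOX* between gag-pol and gag held in 9. Groups of 3 libraries were too small for the test of single outlying libraries.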

How the results depend on the processing

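No difference of a member that passed the threshold changed direction under any alternative. Of the members' fold changes, 5 near 0 changed sign under some: *LOXL3* in gag-pol against gag (-0.03, up to 0.09) and in NC against control (0.01, down to -0.11), *LOXL1* in gag against control (0.01, down to -0.23) and in NC against gag-pol (0.01, down to -0.13), and *LOXL2* in gag against control (0.02, down to -0.09). The counts of members called moved as follows. With no replicate block, where the replicate number is left out of the model, 0 members were called in gag-pol against gag (in place of 1), 0 in NC against gag (in place of 3) and 0 with the capsid region (in place of 1), and of the pathway genes 1 was called higher with the capsid region and 0 in every other comparison and direction. The fold changes stayed close, at 0.45, 0.70 and -0.29 for *LOX* in these comparisons. With DESeq2, 2 members were called in gag-pol against gag and 1 in gag-pol against control, and with no robust estimation also 2 and 1. When each library was left out in turn, members called ranged from 0 to 2 in gag-pol against gag, 1 to 3 in NC against gag, 0 to 1 in gag-pol against control, gag against control and with the capsid region, and 4 to 5 between replicate numbers. *LOXL1* in NC against gag was not called with no filter (adjusted p = 0.10) or with *PEG10* left out of the counts (0.051). Without single libraries, *LOXL4* differed from control by 0.97 to 1.27 with NC, 0.77 to 0.90 with gag-pol and 0.41 to 0.65 with gag. Pathway genes called moved by over 1.5 times with DESeq2 (8 higher in gag-pol against control, 13 higher in gag-pol against gag, 6 lower in gag against control, 3 lower in NC against gag-pol, 1 higher with the capsid region), with no filter (4 lower in gag against control, 5 lower in gag-pol against gag, 3 lower in NC against gag-pol, 4 higher with the capsid region), with at least 10 counts in every library (1 higher in gag against control, 0 lower in NC against gag-pol, 1 higher with the capsid region) and with no robust estimation (1 lower in gag against control, 1 lower in gag-pol against gag, 2 lower in NC against gag-pol). The causes were not tested. With counts of 60 to 247 per library, *LOXL4* had the widest intervals of the family.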
